A study of Mus musculus with 9 samples.

Results

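The 9 genes described here are read as marks of T, NK and B lymphocytes, and they were taken as a list of gene names. They are Cd3e, Cd3g, Cd4, Cd8a, Nkg7, Cd79a, Cd79b, Ighm and Igkc, and all 9 were found by symbol and Ensembl identifier among the 52550 genes of the count table. RNA of the mouse spinal cord was sequenced on day 7 in 3 groups of 3. Sham mice had the spinal cord exposed by laminectomy without injury, SCI mice had a contusion of the thoracic cord and received the DMSO vehicle, and SCI+FIPI mice had the same contusion and daily intraperitoneal FIPI, an inhibitor of phospholipase D. The animals were adult female C57BL/6N mice, and the tissue was the cord segment around the injury, so that all cells of that segment, blood and infiltrating cells included, shared 1 library. The labels number the samples of a group without stating that each was a separate animal. They are called mice here, and the p-values measure the spread between these samples, with an exception given below for the fit with no filter on low counts. SCI against Sham asks how injury was accompanied by lymphocyte transcripts, and SCI+FIPI against SCI asks the same of the drug. Both comparisons use the same SCI mice, and the comparison of SCI+FIPI with Sham uses the same Sham mice again. No injection is described for the Sham mice, so injury and the DMSO vehicle cannot be told apart in comparisons with Sham.

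T cells recognise antigen through a receptor whose variable chains are held at the surface by the CD3 chains, 2 of which are encoded by Cd3e and Cd3g. CD4 and CD8 are the co-receptors that divide helper from cytotoxic T cells. NK cells and cytotoxic T cells carry granules, and Nkg7 encodes a protein of their membrane. B cells carry an antibody at their surface as antigen receptor, signalling through the pair CD79A and CD79B. Ighm encodes the constant region of the mu heavy chain of IgM and Igkc that of the kappa light chain, and both are transcribed in B cells and far more strongly in plasma cells, which secrete antibody. Few lymphocytes live in the healthy cord, while the vertebral marrow, the meninges and the blood hold many. In mice CD4 is also carried by some dendritic cells and macrophages.

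On the GRCm38 assembly, with GENCODE M21 annotation, Ighm (ENSMUSG00000076617) lies at chr12:113418558-113422730 on the minus strand and Igkc (ENSMUSG00000076609) at chr6:70726435-70726966 on the plus strand. Cd79a (ENSMUSG00000003379) lies at chr7:24897381-24902197 and Nkg7 (ENSMUSG00000004612) at chr7:43437073-43438249, both on the plus strand. Cd79b (ENSMUSG00000040592) is on the minus strand at chr11:106311341-106314762. The CD3 genes are neighbours on the minus strand of chromosome 9, Cd3g (ENSMUSG00000002033) at chr9:44969572-44980431 and Cd3e (ENSMUSG00000032093) at chr9:44998740-45009627. Cd4 (ENSMUSG00000023274) is at chr6:124864692-124888221 on the minus strand, and Cd8a (ENSMUSG00000053977) at chr6:71373427-71379173 on the plus strand. Cd3e shares up to 135 exonic bases with an overlapping gene model, and since the strand setting of the counting is not given in the sources used here, reads there cannot be assigned to 1 gene with certainty. Of all 50-base stretches of the Cd79a transcripts, 8.31% also occur in the gene model Gm32220, against 0.0974% for Cd8a in Gm20707 and 0 for the other 7 members.

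The mu chain exists as a secreted and as a membrane form, which share their first 1305 coding bases and differ in the end of the coding sequence. The count table has 1 count for Ighm, so the ends below, which tell antibody-secreting cells from resting B cells, were summed in every value of Ighm. The secreted end has 59 coding bases at chr12:113420870-113420928, and the membrane end has 122 coding bases spliced from exons within chr12:113418829-113419068, both on the minus strand and written 5′ to 3′ from the GENCODE M21 transcripts.
Ighm secreted end: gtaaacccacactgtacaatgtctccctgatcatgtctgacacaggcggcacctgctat
Ighm membrane end: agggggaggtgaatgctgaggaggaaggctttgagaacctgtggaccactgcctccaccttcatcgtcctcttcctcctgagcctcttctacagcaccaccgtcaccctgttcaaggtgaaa

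Of the 9 members, 5 had an entry in the RefSeq promoter table of GRCm38.p6, each from 250 bases before to 50 bases after the start. They were searched on both strands for the ETS site AGGAAGTG, the E-box CAGGTG, the octamer ATGCAAAT and the TATA box TATAAA, which do not overlap one another in the matches given. Cd3e and Cd79a are shown because they were the only members whose window held both the ETS site and the E-box. The capitals mark those matches, written on the gene's strand and therefore as the reverse complement where the match is on the other strand.
Cd3e chr9:45009562-45009861 minus strand: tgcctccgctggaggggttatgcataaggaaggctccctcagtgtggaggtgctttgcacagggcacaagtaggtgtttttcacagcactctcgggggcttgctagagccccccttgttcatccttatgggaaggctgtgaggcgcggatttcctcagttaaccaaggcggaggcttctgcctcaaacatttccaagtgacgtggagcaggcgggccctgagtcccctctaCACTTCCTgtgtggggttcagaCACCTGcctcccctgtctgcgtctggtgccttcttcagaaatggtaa
Cd79a chr7:24897247-24897546 plus strand: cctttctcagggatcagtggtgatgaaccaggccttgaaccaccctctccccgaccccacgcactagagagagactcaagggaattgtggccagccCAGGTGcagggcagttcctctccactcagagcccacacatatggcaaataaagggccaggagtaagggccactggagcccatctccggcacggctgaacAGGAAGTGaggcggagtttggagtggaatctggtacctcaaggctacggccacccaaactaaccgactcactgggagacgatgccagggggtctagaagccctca
The ETS letters begin 19 bases before the Cd3e start and 55 bases before the Cd79a start. They occur in 4.07% of all 32851 promoter windows of this length, the E-box in 20.2%, the octamer in 1.74% and the TATA box in 13.6%. Cd3g held the E-box at 2 positions, and Cd8a and Nkg7 held none of the 4 motifs. The octamer and the TATA box were in no window of the 5 members, which says only that these letters are not there.

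Libraries held 20806000 to 24582377 counted reads, so that 3 counts, the limit used for a gene at 0, correspond to 0.124 to 0.144 CPM, the read count of a gene relative to the library total. Levels are CPM scaled with TMM factors of 0.985 to 1.02, and FPKM, in which CPM is divided by the exonic length in kilobases, is used only where genes are compared with each other. A gene was called where edgeR's quasi-likelihood test gave an adjusted p under 0.05 (Benjamini-Hochberg over 18699 tested genes) together with a log2 fold change of 0.5 or more in either direction. The tissue label held, since all 10 spinal cord marker genes were detected in every mouse, with summed counts of 719552 to 887954. Mice differed within groups in 8 genes of myeloid precursors of the marrow. Their summed count was 713, 1739 and 606 in Sham mice 1 to 3, 1165, 996 and 1029 in the SCI mice, and 616, 2401 and 2077 in the SCI+FIPI mice. Sham mouse 2 and SCI+FIPI mice 2 and 3 thus stood apart from the mice of their own group, and calls of members and named genes that changed without Sham mouse 2 or without all 3 are given with and without them. Leaving out all 3 leaves 1 SCI+FIPI mouse, which is then assumed to vary like the other groups. Their part in a result was not tested beyond that. Markers of red blood cells also differed, with summed CPM of 7 erythroid genes of 280 to 373 in Sham, 96.5 to 226 in SCI and 62.2 to 224 in SCI+FIPI, none at 0 in any mouse. The Sham mice did not overlap with either injured group, although in SCI against Sham edgeR and DESeq2 called 0 of the 7 genes, limma-voom called 4 and edgeR's unadjusted p was under 0.05 for 0. The part of blood in the immunoglobulin and B cell values was not tested. In whole tissue, fewer cells of a type and less RNA per cell cannot be told apart.

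**Figure D1:**
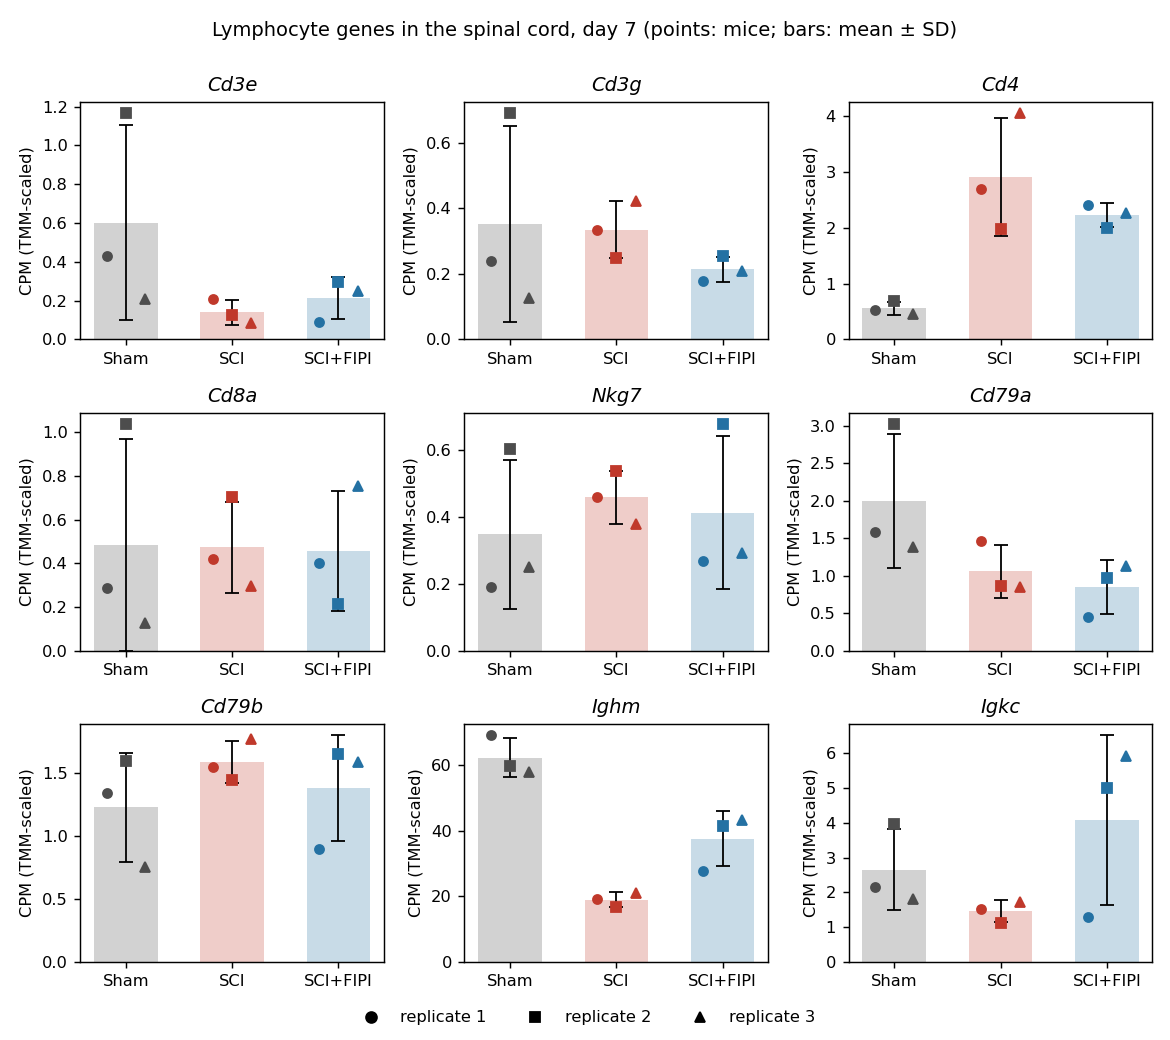
CPM of each of the 9 genes in each mouse (points) with the mean and SD of the 3 mice of a group (bars), each panel on its own scale from 0. Ighm has a mean of 62.2 CPM in Sham, 18.97 in SCI and 37.5 in SCI+FIPI, and Sham mouse 2 is the highest Sham mouse in 8 of the 9 panels.

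Ighm held 68.8% to 91.9% of the summed counts of the 9 genes in a mouse. Which cells its reads came from was not tested. Per length, Ighm was the highest member in every group, at 33.2 ± 3.15 FPKM in Sham, 9.93 ± 1.19 in SCI and 19.96 ± 4.55 in SCI+FIPI (SD, n = 3). Igkc came next in every group, at 5.02 ± 2.29, 2.69 ± 0.583 and 7.68 ± 4.63 FPKM. Cd79a and Cd79b lay at 1.38 and 0.869 FPKM in Sham, at 0.718 and 1.10 in SCI and at 0.587 and 0.968 in SCI+FIPI. The T and NK genes lay under 1 FPKM in each group mean. Cd4 was at 0.140, 0.712 and 0.553 FPKM, Nkg7 at 0.387, 0.496 and 0.454, and Cd8a at 0.135, 0.128 and 0.126. Cd3g was at 0.109, 0.101 and 0.0658 FPKM and Cd3e at 0.150, 0.0337 and 0.0523. Differences between neighbours in this order among Cd3e, Cd3g, Cd4 and Cd8a in Sham were smaller than their spread between mice, as were those between Cd79a and Cd79b in Sham.

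The CD3 chains were near the limit of detection. The read counts of Cd3e were 9, 27 and 5 in the Sham mice, 5, 3 and 2 in the SCI mice and 2, 7 and 6 in the SCI+FIPI mice. Sham mouse 2 was highest, and the groups overlapped, since Sham mouse 3 and SCI mouse 1 both had 5 counts. The SD of the Sham counts was 11.7, against 3.70 for counting error alone. Cd3g gave 5, 16 and 3 counts in Sham, 8, 6 and 10 in SCI and 4, 6 and 5 in SCI+FIPI, again overlapping, with Sham mouse 2 highest. Both genes were below the filter on low counts and were not tested with the 18699 genes. With no filter, the log2 fold change of Cd3e in SCI against Sham was -2.05 (SE 0.644, 95% interval -3.31 to -0.79, adjusted p = 0.00473 by edgeR's quasi-likelihood test), and that of Cd3g was -0.05 (adjusted p = 1). The same fit gave Cd3e 0.60 (adjusted p = 0.721, edgeR) and Cd3g -0.63 (adjusted p = 0.681, edgeR) in SCI+FIPI against SCI. In SCI+FIPI against Sham it gave Cd3e -1.45 (adjusted p = 0.0496, edgeR). These p-values and the interval cannot be set beside those of the filtered fit. For Cd3e the unfiltered fit takes little account of the spread between its own mice. For Ighm in SCI against Sham it gave an adjusted p of 3.24e-27 (edgeR), against 1.23e-05 in the filtered fit.

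Cd4 was the member that rose with injury. It had 11, 16 and 11 counts in the Sham mice, 64, 48 and 96 in the SCI mice and 54, 47 and 54 in the SCI+FIPI mice. Every injured mouse, treated or not, was above every Sham mouse, and the SCI and SCI+FIPI mice overlapped. The mean went from 0.559 ± 0.119 CPM in Sham to 2.91 ± 1.05 CPM in SCI and 2.22 ± 0.214 CPM in SCI+FIPI (SD, n = 3). Cd4 rose 5.15-fold in SCI (log2 fold change 2.37, SE 0.308, 95% interval 1.71 to 3.02, edgeR's adjusted p = 7.7e-06), and SCI+FIPI was 3.95-fold above Sham (log2 fold change 1.98, SE 0.315, edgeR's adjusted p = 7.45e-05). SCI+FIPI against SCI gave -0.39 (95% interval -0.94 to 0.17, edgeR's adjusted p = 0.381). The rise of Cd4 was found in the mice without high marrow genes as well, at 2.55 on the log2 scale.

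Genes of macrophages and some genes of the T cell list were also higher in SCI, while the constant region Trac of the T cell receptor was not called. The summed count of 10 macrophage and microglia genes was 9776 to 12896 in Sham, 142473 to 168374 in SCI and 101718 to 124093 in SCI+FIPI, and none of them was at 0 in any mouse. Of these 10, 9 were called higher in SCI, beside 24.4% of all tested genes, and their median log2 fold change was 2.16. Per 100 counts of Csf1r, the receptor that sustains microglia and macrophages, Cd4 had 0.279 to 0.432 counts in Sham, 0.395 to 0.790 in SCI and 0.488 to 0.602 in SCI+FIPI. The part of macrophages in the Cd4 level was not tested. The constant region of the alpha chain of the T cell receptor, Trac, had 47, 54 and 41 counts in Sham, 35, 69 and 56 in SCI and 49, 67 and 44 in SCI+FIPI, with overlapping groups (log2 fold change in SCI 0.09, SE 0.265, edgeR's adjusted p = 0.784). Of the 15 tested genes of the T cell list, 6 were called higher in SCI and 9 were not called. Besides Cd4, they included Cd5 (log2 fold change 1.98, SE 0.446, edgeR's adjusted p = 0.00118), with 4 to 26 counts per mouse, and Tcf7 (1.16, SE 0.152, edgeR's adjusted p = 8.15e-06). The part of T cells in the Cd4 level was not tested either.

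Cd8a and Nkg7, the members of the cytotoxic side, were not called in any comparison. Cd8a, with 6, 24 and 3 counts in Sham, 10, 17 and 7 in SCI and 9, 5 and 18 in SCI+FIPI, overlapped between all groups, and Sham mouse 2 was the highest of the 9 mice. Its log2 fold change in SCI was -0.03 (95% interval -1.49 to 1.42, edgeR's adjusted p = 0.967), and in SCI+FIPI against SCI it was -0.05 (95% interval -1.51 to 1.41, edgeR's adjusted p = 0.975). Without Sham mouse 2 the value in SCI was 1.21, still not called. Nkg7 had 4, 14 and 6 counts in Sham, 11, 13 and 9 in SCI and 6, 16 and 7 in SCI+FIPI. Its groups also overlapped, with log2 fold changes of 0.38 (95% interval -0.74 to 1.499, edgeR's adjusted p = 0.54) in SCI and -0.15 (95% interval -1.23 to 0.94, edgeR's adjusted p = 0.895) in SCI+FIPI against SCI. These counts resolve little, since a rise by 0.99 on the log2 scale, the value found below for Ighm, lies within both intervals of Cd8a. Ifng, the cytokine of activated NK and T cells, had 0 counts in all 9 mice, which allows up to 0.124 to 0.144 CPM per mouse.

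Cd79a was lower after injury and Cd79b was not called. Cd79a had 33, 70 and 33 counts in the Sham mice, 35, 21 and 20 in the SCI mice and 10, 23 and 27 in the SCI+FIPI mice. SCI mouse 1, at 1.47 CPM, lay above Sham mouse 3, at 1.38 CPM, so those groups overlapped, while each SCI+FIPI mouse was under each Sham mouse. The mean fell from 1.99 ± 0.897 CPM to 1.06 ± 0.353 CPM in SCI (log2 fold change -0.91, SE 0.378, 95% interval -1.72 to -0.10, edgeR's adjusted p = 0.0466) and to 0.851 ± 0.359 CPM in SCI+FIPI (log2 fold change against Sham -1.22, SE 0.389, edgeR's adjusted p = 0.0149). Both calls were lost without Sham mouse 2, when the log2 fold change was -0.48 (edgeR's adjusted p = 0.298) in SCI and -0.79 (edgeR's adjusted p = 0.108) in SCI+FIPI. Without the 3 mice high in marrow genes it was -0.47 (edgeR's adjusted p = 0.269) in SCI and -1.71 (edgeR's adjusted p = 0.0318) in SCI+FIPI, where the 1 mouse left was the lowest in Cd79a. Its SCI call also went when SCI mouse 2 or 3 was left out (edgeR's adjusted p = 0.133 and 0.132), with a replicate block (edgeR's adjusted p = 0.0754), and under DESeq2 (adjusted p = 0.0731) and limma-voom (adjusted p = 0.0646). Its SCI+FIPI call was also lost when SCI+FIPI mouse 1 was left out (edgeR's adjusted p = 0.0612).

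Cd79b, the partner of Cd79a in the receptor, had 28, 37 and 18 counts in Sham, 37, 35 and 42 in SCI and 20, 39 and 38 in SCI+FIPI. All of its groups overlapped. The log2 fold change was 0.37 (95% interval -0.30 to 1.04, edgeR's adjusted p = 0.31) in SCI and -0.20 (95% interval -0.86 to 0.46, edgeR's adjusted p = 0.743) in SCI+FIPI against SCI. The difference between the Cd79a and Cd79b changes was not tested.

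Ighm fell with injury and was higher in the treated mice than in the untreated injured mice. Its counts were 1441, 1382 and 1386 in Sham, 457, 403 and 500 in SCI, and 622, 978 and 1033 in SCI+FIPI. No group overlapped with another, and the lowest SCI+FIPI mouse lay nearest to SCI. Mean levels were 62.2 ± 5.97 CPM in Sham, 18.97 ± 2.22 CPM in SCI and 37.5 ± 8.47 CPM in SCI+FIPI (SD, n = 3). The level in SCI was 3.28-fold under that in Sham (log2 fold change -1.71, SE 0.167, 95% interval -2.09 to -1.33, edgeR's adjusted p = 1.23e-05). SCI+FIPI was 1.98-fold above SCI (log2 fold change 0.99, SE 0.168, 95% interval 0.60 to 1.37, edgeR's adjusted p = 0.0108) and 1.66-fold under Sham (log2 fold change -0.73, SE 0.160, 95% interval -1.09 to -0.36, edgeR's adjusted p = 0.00346). An exact permutation test gives 0.1 for each of these, the smallest p that 3 mice against 3 allow.

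Within Sham, mouse 2, the one high in marrow genes, lay between the others in Ighm, at 59.7 CPM beside 69.0 and 57.9. In SCI+FIPI the SD of the counts was 223, against 29.6 for counting error alone, and mice 2 and 3, high in marrow genes, were also the higher ones in Ighm. Leaving out SCI+FIPI mouse 2 gave 0.91 for SCI+FIPI against SCI (edgeR's adjusted p = 0.054). Leaving out the 3 mice high in marrow genes gave 0.55 (edgeR's adjusted p = 0.199). The fall in SCI against Sham was -1.74 without those mice (edgeR's adjusted p = 3.67e-07).

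Igkc followed the same order of groups in part, with a wide spread. It had 45, 92 and 43 counts in Sham, 36, 27 and 41 in SCI and 29, 118 and 141 in SCI+FIPI. Every SCI mouse was under every Sham mouse, and the SCI+FIPI mice spanned both, where mouse 1 was the lowest of its group and mouse 3 the highest of all. The log2 fold change was -0.86 (SE 0.569, 95% interval -2.17 to 0.45, edgeR's adjusted p = 0.214) in SCI, and 1.49 (SE 0.550, 95% interval 0.22 to 2.76, edgeR's adjusted p = 0.135) in SCI+FIPI against SCI, so neither was called. DESeq2 called the latter, at 1.48 (adjusted p = 0.0124), as did edgeR's test without SCI+FIPI mouse 1, at 1.91 (adjusted p = 0.00627). Without the 3 mice high in marrow genes the value was -0.16 (edgeR's adjusted p = 0.906).

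**Figure D2:**
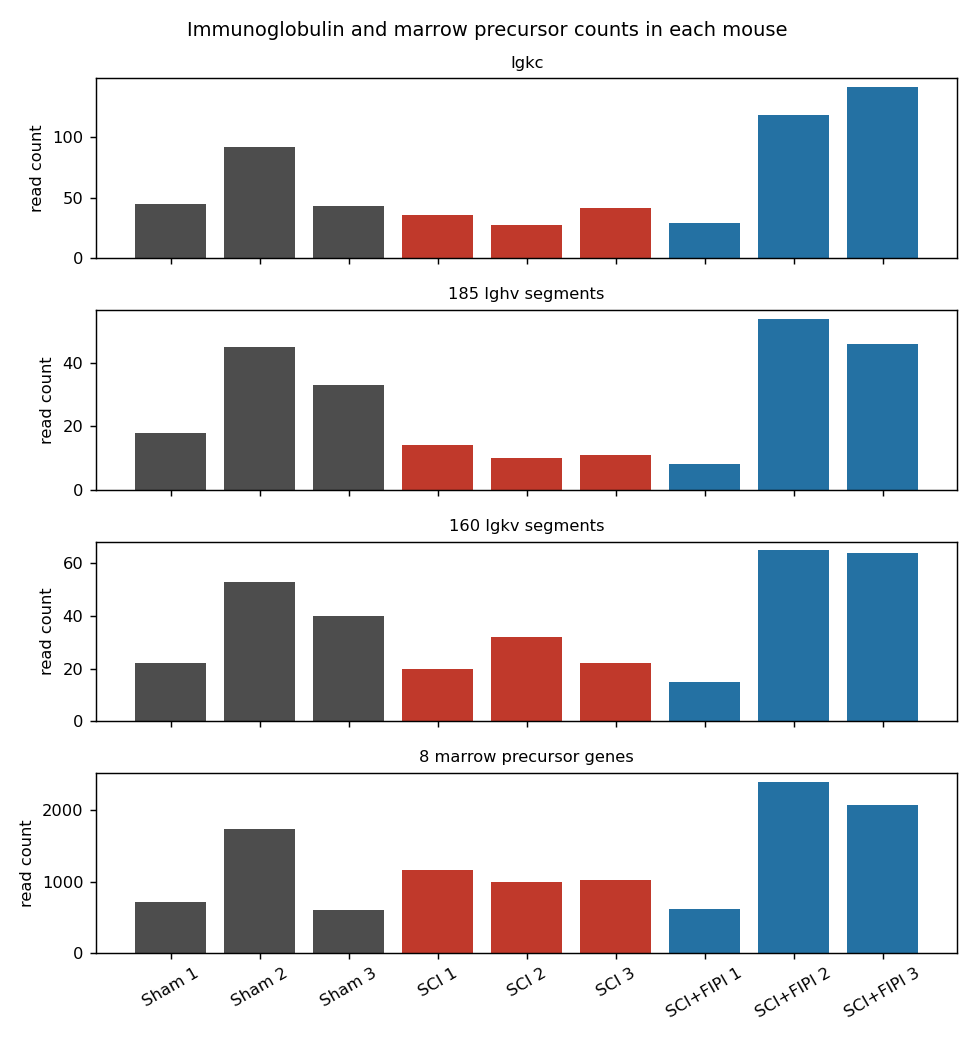
Read counts in each of the 9 mice (bars, from 0) of Igkc, the summed Ighv and Igkv variable segments and the 8 summed marrow precursor genes, coloured by group. All 4 are highest in SCI+FIPI mice 2 and 3 and, within Sham, in mouse 2.

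Antibody transcripts join a variable segment to the constant region, so the variable segments give a second reading of the immunoglobulin signal. The 185 Ighv segments of the heavy chain summed to 18, 45 and 33 counts in Sham, 14, 10 and 11 in SCI and 8, 54 and 46 in SCI+FIPI. The 160 Igkv segments of the kappa chain summed to 22, 53 and 40 counts in Sham, 20, 32 and 22 in SCI and 15, 65 and 64 in SCI+FIPI. In both families SCI+FIPI mouse 1 had the lowest sum of all mice, while SCI+FIPI mice 2 and 3 and Sham mouse 2 had the 3 highest. Segments of a family share sequence, so the counts of single segments are uncertain.

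The heavy chain constant region carried few variable segment counts for its level. Per 100 Ighm counts there were 1.25 to 5.52 Ighv counts in a mouse, while per 100 Igkc counts there were 45.4 to 119 Igkv counts. The exonic length of Ighm is 1886 bases and that of Igkc 532, and a longer region collects more reads. The part of length in this difference was not tested. Per length, the ratio of Ighm to Igkc was 9.03, 4.24 and 9.09 in the Sham mice, 3.58, 4.21 and 3.44 in the SCI mice and 6.05, 2.34 and 2.07 in the SCI+FIPI mice. It was highest in the mice low in marrow genes of the Sham and SCI+FIPI groups. The ratio of Ighm to Cd79b separated all groups, at 28.3 to 58.4 in Sham, 8.74 to 9.37 in SCI and 19.0 to 23.6 in SCI+FIPI. Ighm alone also separated them. The ratio of Ighm to Cd79a did not, at 15.3 to 33.7 in Sham, 10.1 to 19.3 in SCI and 29.6 to 48.1 in SCI+FIPI, where Sham overlapped with both injured groups.

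**Figure D3:**
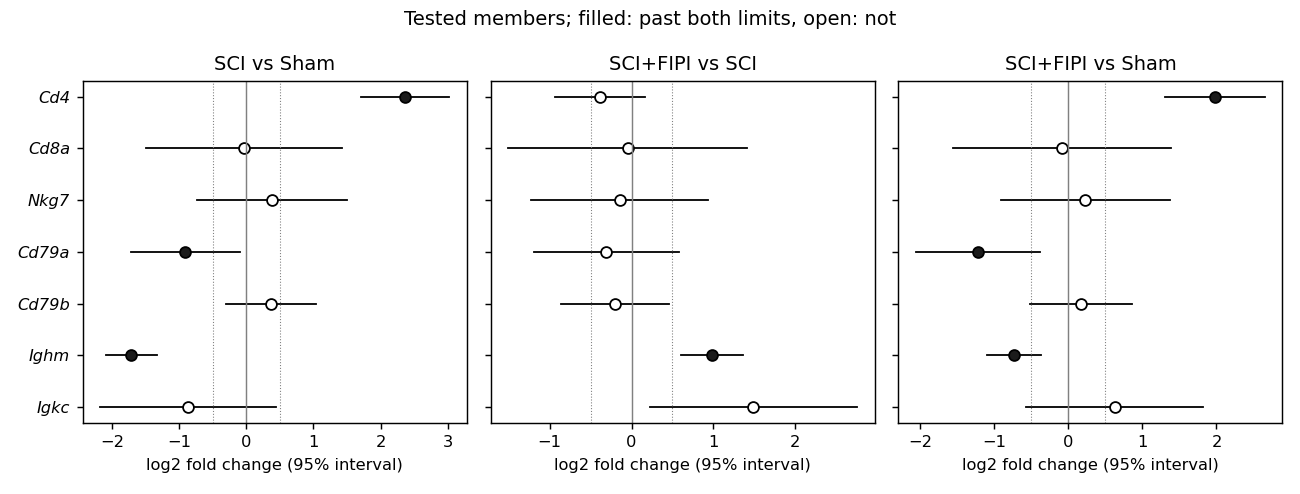
Log2 fold changes of the 7 tested members with 95% intervals in each of the 3 comparisons, filled where both limits were passed and open where not. Cd4 lies to the right of 0 and Ighm and Cd79a to the left in SCI against Sham, and Ighm is the filled point in SCI+FIPI against SCI.

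Counted over the 7 tested members, 1 was higher and 2 were lower in SCI against Sham, where 47.0% of all tested genes were called in either direction, 24.4% higher and 22.5% lower. In SCI+FIPI against SCI 1 of 7 was called, where 3.06% of all tested genes were called, 2.36% higher and 0.695% lower. The adjusted p alone was also passed by 1 of the 7 there, and by 9.63% of all tested genes. Against Sham, SCI+FIPI had 1 higher and 2 lower members, with 38.1% of all tested genes called, 21.2% higher and 17.0% lower. The median log2 fold change of the members was -0.03, -0.15 and 0.17 in the 3 comparisons, and that of all tested genes was -0.00315, -0.00135 and -0.00277. Groups that did not overlap were found for 1 member higher and 2 lower in SCI against Sham, where 70.5% of all tested genes did not overlap, and for Ighm in SCI+FIPI against SCI, where 30.2% did not.

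The wider lists of the same lineages moved unevenly. Of 96 genes in 7 lymphoid lists, 61 were tested, and in SCI against Sham 17 were called higher and 12 lower, and the median of the 61 log2 fold changes was 0.16. This is 29 of 61, against 47.0% of all tested genes, of which 24.4% were higher and 22.5% lower. The number of lower calls was 6 without Sham mouse 2, 6 without the 3 mice high in marrow genes and 7 without SCI mouse 3, while that of higher calls was 17 to 20. Of 25 T cell genes 15 were tested, 6 were higher and none of the 15 was lower. The largest changes were in Cd28, the co-stimulatory receptor, at 0.221 ± 0.113 CPM in Sham and 11.2 ± 3.36 in SCI (log2 fold change 5.62, SE 0.456, edgeR's adjusted p = 1.61e-06), and in Il7r, the interleukin-7 receptor, at 1.03 ± 0.252 and 24.8 ± 3.92 CPM (log2 fold change 4.58, SE 0.274, edgeR's adjusted p = 1.27e-07). Ccr7, the homing receptor of naive T cells and mature dendritic cells, rose by 2.37 on the log2 scale (SE 0.541, edgeR's adjusted p = 0.00152). These rose while Trac was not called and Cd3e and Cd3g had the low counts given above. Cd3d, another CD3 chain, had 0, 12 and 7 counts in Sham, 6, 3 and 1 in SCI and 0, 1 and 1 in SCI+FIPI.

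The NK list had 5 of 16 genes tested, and Klrd1, which encodes the receptor chain CD94, was the 1 called, with 9, 5 and 2 counts in Sham and 14, 33 and 14 in SCI (log2 fold change 1.82, SE 0.546, edgeR's adjusted p = 0.00882). Of 13 lymphoid chemokine and cytokine genes, 11 were tested, 4 were higher and 1 lower. Beside both lists, 24.4% of all tested genes were called higher and 22.5% lower. Cxcl16, a chemokine that draws T cells, rose from 9.30 ± 2.07 to 44.5 ± 5.31 CPM, Cxcr3, a chemokine receptor of activated T and NK cells, from 0.363 ± 0.215 to 1.11 ± 0.406, and Il15, a survival cytokine of NK and memory T cells, from 1.54 ± 0.699 to 3.99 ± 0.162. Tnfsf13b, which encodes the B cell survival factor BAFF, fell from 13.4 ± 0.648 to 6.59 ± 0.101 CPM (log2 fold change -1.02, SE 0.118, edgeR's adjusted p = 2.31e-06).

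B cell genes went both ways in SCI against Sham. Of 16 tested B cell genes 3 were higher and 6 lower, beside 24.4% and 22.5% of all tested genes, and their median log2 fold change was -0.96. Cd22, an inhibitory receptor that B cells and activated microglia carry, was at 2.43 ± 1.22 CPM in Sham and 30.9 ± 3.92 in SCI, and Cd37, a tetraspanin of many leukocytes, at 12.9 ± 1.97 and 95.7 ± 3.26. The lower ones were genes with few counts outside Ighm. Fcer2a, the low-affinity IgE receptor, had 19, 19 and 25 counts in Sham and 6 in each SCI mouse (log2 fold change -1.86, SE 0.439, edgeR's adjusted p = 0.00169). Ms4a1, which encodes CD20, had 9, 24 and 12 counts in Sham, 2, 6 and 5 in SCI and 3, 3 and 9 in SCI+FIPI. Its groups did not overlap between Sham and either injured group (log2 fold change in SCI -1.83, SE 0.572, edgeR's adjusted p = 0.011), but without Sham mouse 2 the value in SCI was -1.34 (edgeR's adjusted p = 0.0817) and without the 3 mice -1.34 (edgeR's adjusted p = 0.0982).

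Genes of early B cells and of plasma cells also went both ways in this comparison, where 24.4% of all tested genes were higher and 22.5% lower. Of 5 tested early B cell genes 2 were lower, Rag1, which cuts the receptor genes for joining, at 11, 29 and 26 counts in Sham and 7, 12 and 3 in SCI, without overlap in CPM, and Ebf1, a transcription factor of the B lineage that stromal cells also use, at 1219, 1502 and 1337 counts in Sham and 633, 625 and 629 in SCI. Rag1 was not called without Sham mouse 2 (-1.40, edgeR's adjusted p = 0.0588) or without the 3 mice (-1.39, edgeR's adjusted p = 0.0642). Il7r, on that list too, was the 1 called higher. Of 7 tested plasma cell genes 3 were higher and 1 lower. Sdc1, the surface proteoglycan syndecan-1, rose from 5.66 ± 1.59 to 51.0 ± 9.29 CPM, and Prdm1, the transcription factor Blimp-1, from 1.31 ± 0.334 to 5.61 ± 0.960, as did Xbp1, a factor of the secretory pathway, with a log2 fold change of 0.86 (SE 0.133, edgeR's adjusted p = 0.000297). Jchain, the joining chain that links IgM and IgA into polymers, fell, with 29, 64 and 39 counts in Sham and 28, 23 and 17 in SCI (log2 fold change -1.02, SE 0.324, edgeR's adjusted p = 0.012). Jchain was not called without Sham mouse 2 (-0.67, edgeR's adjusted p = 0.0905) or without the 3 mice (-0.67, edgeR's adjusted p = 0.106).

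**Figure D4:**
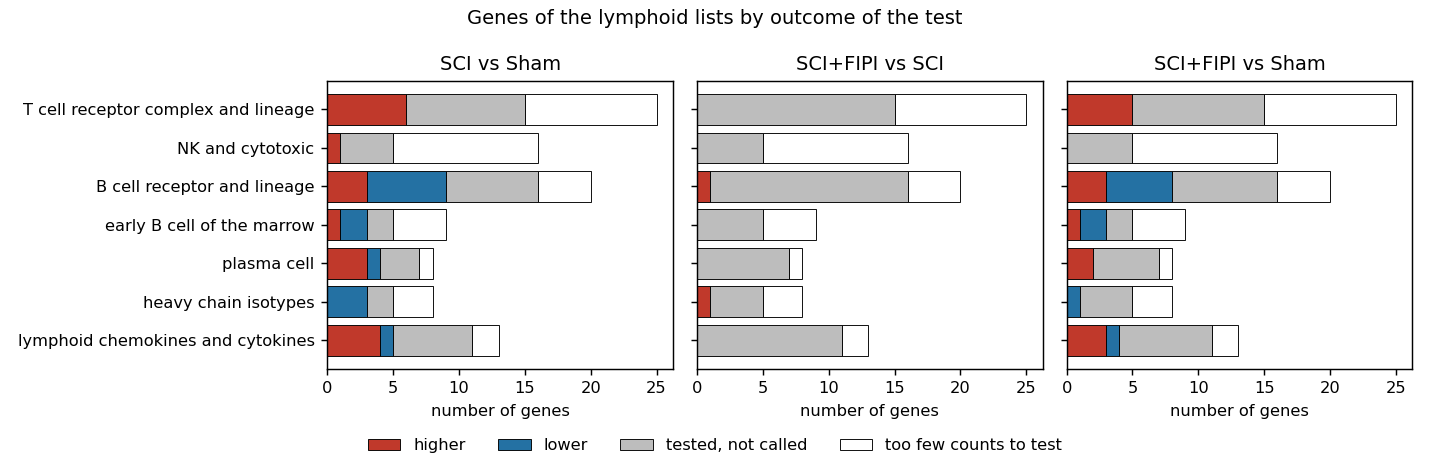
Number of genes of each lymphoid list that were called higher, called lower, not called or not tested, in each of the 3 comparisons. The T cell list has higher and no lower genes in SCI against Sham, the B cell and isotype lists hold most of the lower ones, and in SCI+FIPI against SCI Ighm is the 1 gene called.

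Among the 8 heavy chain isotypes, Ighm held most of the counts. Igha, the constant region of IgA, had 61, 161 and 95 counts in Sham, 62, 27 and 41 in SCI and 37, 79 and 72 in SCI+FIPI, and Ighg3, of an IgG class, had 13, 9 and 26, then 7, 2 and 4, then 12, 9 and 17. Both were lower in SCI against Sham, at -1.35 (SE 0.400, edgeR's adjusted p = 0.0126) and -1.92 (SE 0.548, edgeR's adjusted p = 0.0063) on the log2 scale, and neither overlapped with Sham in CPM. Ighd, of IgD, had 32, 27 and 11 counts in Sham, 11, 16 and 10 in SCI and 20, 11 and 11 in SCI+FIPI and was not called. Ighg2b had 1 to 32 counts per mouse, with the 32 in SCI mouse 1, Ighg2c had 2 to 13, Ighg1 at most 3 and Ighe 0 in all mice. Vpreb2, of the surrogate light chain, was also at 0 in all mice.

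With FIPI, Ighm was the 1 gene called of the 61 tested lymphoid genes, with 3.06% called over all genes. By unadjusted p under 0.05, 5 of the 61 were higher and 4 lower, and DESeq2 called 2. The 3.06% does not apply to the unadjusted p, for which the share of all tested genes was not computed. Even the adjusted p alone was passed by 9.63% of all tested genes. The T cell list had a median log2 fold change of -0.23 and no call by edgeR in 15 genes, with 2 lower at an unadjusted p under 0.05 and none called by DESeq2 or limma-voom. Ccr7 had 28, 66 and 22 counts in SCI and 8, 11 and 18 in SCI+FIPI, without overlap (log2 fold change -1.60, SE 0.494, edgeR's adjusted p = 0.0584). Ighg3, in the order of Ighm, had a value of 1.56 (SE 0.566, edgeR's adjusted p = 0.0979), also without overlap. Ebf1 passed the adjusted p and not the limit on the fold change, at 0.39 (SE 0.0715, edgeR's adjusted p = 0.00697), with 742, 800 and 857 counts in SCI+FIPI. Cd28 and Il7r, at 8.13 ± 3.10 and 17.7 ± 5.27 CPM in SCI+FIPI, gave -0.46 and -0.49 against SCI and were not called.

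Against Sham, the SCI+FIPI mice had 13 of the 61 lymphoid genes higher and 8 lower, beside 21.2% and 17.0% of all tested genes, and 5 were lower without Sham mouse 2. Pax5, the transcription factor that holds B cell identity, had 20, 60 and 28 counts in Sham, 16, 21 and 16 in SCI and 6, 17 and 14 in SCI+FIPI. It was lower than Sham in SCI+FIPI (log2 fold change -1.57, SE 0.430, edgeR's adjusted p = 0.00574) and in SCI (-1.09, SE 0.409, edgeR's adjusted p = 0.0292). Without Sham mouse 2 Pax5 was not called, at -1.01 (edgeR's adjusted p = 0.0539) and -0.53 (edgeR's adjusted p = 0.265), and without the 3 mice it was -1.97 (edgeR's adjusted p = 0.0257) and -0.52 (edgeR's adjusted p = 0.248). Ms4a1, at -1.60, and Fcer2a, at -1.41, were lower, while Cd22 and Cd37 were higher by 3.22 and 2.62 on the log2 scale. Ms4a1 was not called in SCI+FIPI without Sham mouse 2 (-1.11, edgeR's adjusted p = 0.148) or without the 3 mice (-1.76, edgeR's adjusted p = 0.186), and Fcer2a was not called without the 3 mice (-0.74, edgeR's adjusted p = 0.332). Ms4a1 and Pax5 gave 0.24 and -0.48 for SCI+FIPI against SCI, which were not called.

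The genes nearest to Ighm were not B cell genes. Likeness was the root mean square difference of mean-centred log2 CPM over the 9 mice, among all tested genes. Lhfpl5 (0.149), a partner of the mechanotransduction channel of hair cells, Alox8 (0.156), a lipoxygenase, and Pcdh8 (0.161), a protocadherin of neurons, were nearest. Their mean CPM in Sham, SCI and SCI+FIPI was 7.24, 2.11 and 4.001 for Lhfpl5, 11.1, 2.84 and 5.69 for Alox8 and 15.8, 4.90 and 8.35 for Pcdh8. Igkc was nearest to Camp (0.348), the cathelicidin of neutrophil precursors and 1 of the 8 marrow genes summed above, then to Gm48697 (0.353) and Prss34 (0.393), a protease of basophils and mast cells. Cd79a was nearest to Pou2af1 (0.249), a B cell co-activator, Cd4 to Mylip (0.167), Prdm1 (0.168) and Wdr86 (0.169), Cd79b to Lpar4 (0.144), and Nkg7 to Spata17 (0.203). Likeness at low counts is loose, since counting error then makes much of the pattern.

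**Figure D5:**
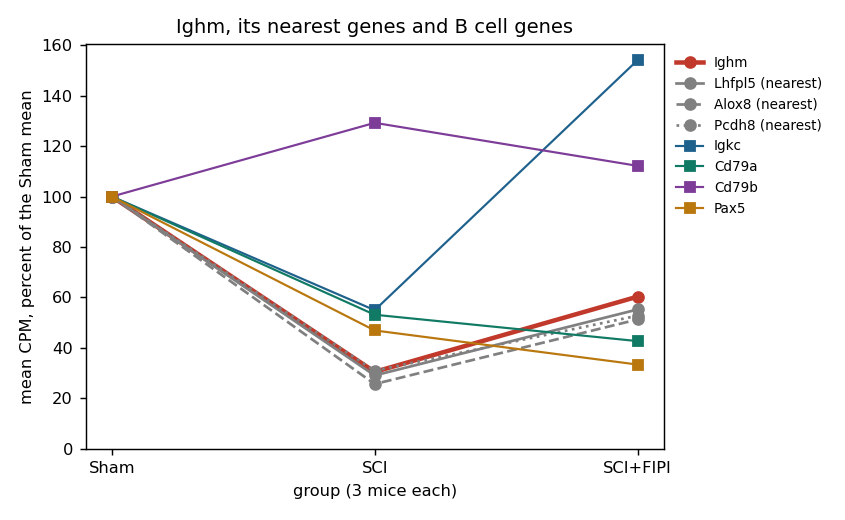
Mean CPM of Ighm, its 3 nearest genes and B cell genes in the 3 groups (3 mice each), as a percent of the Sham mean. Ighm and its nearest genes fall in SCI and lie between SCI and Sham in SCI+FIPI, while Cd79a and Pax5 are lower still in SCI+FIPI, Igkc is above its Sham mean there and Cd79b is above it in both injured groups.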

How the data were processed

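RNA of spinal cord segments of 9 mice was sequenced from polyA-selected libraries. The authors trimmed the reads and deposited 1 table of read counts per gene, not normalized, with 1 column per sample. The aligner, the counting program, its annotation and its strand setting are not given in the sources used here, and the submitters' processing notes name GRCm38 and R 4.2.3. Of 52550 identifiers, 52403 were matched to GENCODE M21, the source of symbols, positions and lengths. Counts were analysed with edgeR 4.0.16 in R 4.3.3. Genes passing filterByExpr (18699) were scaled by TMM and fitted over the 3 groups with the quasi-likelihood test, Benjamini-Hochberg adjustment and an absolute log2 fold change limit of 0.5. On counts simulated for SCI against Sham with 4-fold changes, the test called 192 of 196 changed genes and 4 others among 18357 genes. The simulated spread between mice was set alike for every gene. Igkc in SCI+FIPI, for example, had an SD of 59.2 counts, against 9.80 for counting error alone. The simulation therefore does not show how often the test finds changes of the members. Depth was 20806000 to 24582377 counts per mouse, and error bars are SDs of 3 mice. Totals of 3 counts mark the detection limit and cover counting error only. Chi-square values per gene between mice of a group were 6.59 to 12.7, so each was kept as its own replicate.

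The members and lists were chosen with earlier results of these data known. Besides the members, the text names at most 4 called genes per list and comparison with the largest absolute log2 fold change, genes of the lymphoid lists at 0 or too low to test, all isotypes, variable segment sums and the nearest genes of tested members. Trac, Cd5, Tcf7, Cd3d as a CD3 chain, and values of named genes in the comparisons where they were not called were added after their values were seen. Alternatives were other scaling factors, other filters, no fold limit, 2-group fits, a replicate block, DESeq2 1.42.0, limma-voom (limma 3.58.1) and each mouse left out. Leaving out the 3 mice high in marrow genes was added after seeing the data.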

Additional observations from a re-analysis of the deposited data

How the results depend on the processing

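The calls of Cd4 and Ighm in SCI against Sham and in SCI+FIPI against Sham were found under every alternative run, with Cd4 at 2.05 to 2.58 and Ighm at -1.79 to -1.62 in SCI when single mice were left out. Of 305 recomputed member values, 264 kept sign and call, 11 lost and 4 gained a call and 26 changed sign, and 0 of those 26 were called. With at least 10 counts in every mouse, 17 lymphoid genes were called in SCI against Sham in place of 29, since fewer were tested. In SCI+FIPI against SCI the number of members called was 1, and it was 2 with DESeq2, 0 without the 3 mice high in marrow genes and 0 to 2 with single mice left out. The number of lymphoid genes called there was 1, and it was 3 with no fold limit, 3 with no filter, 2 with DESeq2, 0 without those 3 mice and 0 to 3 with single mice left out. The cause was not tested where no mouse or filter is named.

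Same-numbered mice were different animals, and the correlation of their deviations was -0.0726 to 0.108, with the best match having the same number in 9 of 18 checks. With the replicate number as a block, 2 members were called in SCI against Sham (Cd79a lost), 1 in SCI+FIPI against SCI and 3 in SCI+FIPI against Sham, and the lymphoid calls were 28, 1 and 23. The block turned the sign of Cd8a to 0.0359 in SCI against Sham, 0.0497 in SCI+FIPI against SCI and 0.0856 in SCI+FIPI against Sham. Limma-voom gave Cd8a 0.36 in SCI and 0.23 in SCI+FIPI against Sham. Without the 3 mice Cd8a was 1.21 and 0.98, Igkc was -0.16 against SCI and -0.60 against Sham, and Cd79b was -0.21 against Sham. With single mice left out, Cd8a ranged from -0.50 to 1.21 in SCI, from -0.62 to 0.35 in SCI+FIPI against SCI and from -0.65 to 1.16 in SCI+FIPI against Sham. Nkg7 ranged from -0.70 to 0.0757 against SCI and from -0.32 to 0.88 against Sham, Cd79a from -0.56 to 0.00390 against SCI, and Cd79b from -0.35 to 0.0288 against SCI and from -0.0897 to 0.41 against Sham. Igkc was also called in SCI against Sham when fitted to those groups alone (edgeR's adjusted p = 0.0345). Cd3e, which was not tested as reported, was called lower in SCI against Sham by DESeq2 and when SCI mouse 1 or 2 was left out. With no filter, and without Sham mouse 3, it was called lower than Sham in both injured groups. Without Sham mouse 2, its highest mouse, it was again not tested. Without the 3 mice high in marrow genes it was tested and not called in SCI against Sham.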

Other observations

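The summed count of the variable segments of the T cell receptor alpha chain was higher after injury. In the SCI mice, 47.0% to 61.4% of it was in 1 segment. The 128 Trav segments summed to 8, 18 and 24 counts in Sham, 83, 82 and 66 in SCI and 47, 72 and 37 in SCI+FIPI, with every injured mouse above every Sham mouse. The 35 Trbv segments of the beta chain summed to 19, 21 and 6, then 5, 2 and 7, then 6, 7 and 6. A single segment, Trav14n-3, named after its values were seen, held 51, 50 and 31 of the SCI counts and 13, 30 and 13 of the SCI+FIPI counts, and 0 in each Sham mouse. Against the limit of 3 counts over the Sham group it was at least 41.7-fold higher in SCI and at least 18.2-fold higher in SCI+FIPI. It lies at chr14:53370077-53370575 (GRCm38), and 46.2% of its 50-base stretches occur in other segments of its family, so its count is uncertain. Trav13n-4, also chosen after its values were seen, had 0 counts in each Sham mouse, 7, 9 and 12 in SCI and 13, 6 and 6 in SCI+FIPI. Trav14-3, which shares sequence with Trav14n-3, had 0 counts in each Sham mouse, 9, 6 and 4 in SCI and 1, 4 and 4 in SCI+FIPI. A large part of the higher sum in SCI thus lay in segments that were at 0 in Sham and whose single counts are uncertain. Per mouse, 4 to 12 Trav segments had any count in Sham, 10 to 11 in SCI and 11 to 20 in SCI+FIPI, with overlapping groups. A rise over the Trav segments at large is therefore not shown, and the others were not tested apart. Trac, the constant region that Trav segments join, did not show the higher level of the sum after injury.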
